A study of Mus musculus with 12 samples.

Results

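The genes described here are the 3 precursors of the opioid peptides, Penk, Pdyn and Pnoc, and the 4 opioid receptors, Oprm1, Oprd1, Oprk1 and Oprl1. They were found by symbol in the deposited table of normalized CPM, a read count set relative to the size of its library, where these 7 were listed among 32494 genes. All 7 were also among the 15359 genes that were tested, which were those with a mean of at least 1 CPM.

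Opioid peptides are cut from large precursor proteins inside secretory vesicles. Penk gives the enkephalins, Pdyn gives the dynorphins and neoendorphins, and Pnoc gives nociceptin. The mu, delta and kappa receptors (Oprm1, Oprd1 and Oprk1) and the nociceptin receptor (Oprl1) couple to inhibitory G proteins, which lower cyclic AMP, open potassium channels and close calcium channels. In the hypothalamus this system acts on feeding, on water balance and on the release of pituitary hormones, and dynorphin is made there by vasopressin, orexin and kisspeptin neurons, among others.

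RNA was sequenced from the hypothalamus of 12 male mice, and each title names a separate mouse. All 12 mice carried floxed Smc3 and all received tamoxifen. Sampling was 5 weeks after the drug, and an age of 8 weeks is given in the growth protocol, without the step it refers to. The 7 libraries labelled WT came from Camk2a-cre/ERT2- mice (1, 4, 5, 6, 7, 11 and 15), and the 5 labelled cKO from Camk2a-cre/ERT2+ mice (8, 9, 12, 13 and 14). The titles of both groups also carry the word control, which was not used for grouping. Camk2a-cre/ERT2 makes a tamoxifen-activated recombinase in excitatory forebrain neurons, so other cells of the tissue are not its target. Every control mouse thus had the floxed allele and the drug too, and no group without tamoxifen was analysed here. The series design sets out to ask what loss of Smc3, a subunit of the cohesin ring that shapes DNA loops, does in the adult brain.

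Smc3 went against the labels. The libraries labelled WT held 81.6 ± 3.14 CPM of it (SD, n = 7) and those labelled cKO held 131 ± 10.3 CPM (SD, n = 5), with no overlap (limma log2 difference 0.67 ± 0.05, SE, adjusted p = 3.06e-05). A count over the whole gene does not show whether an exon was removed, and the labels do not say which part was floxed. Every direction below is therefore that of the libraries labelled cKO against those labelled WT. Depth was 17.1 to 24.0 M reads (megareads) in all libraries except WT 1, which had 68.7 M. Across all tested genes, 2172 passed the threshold of 0.05, or 14.1%, with 1004 of them higher (6.54%) and 1168 of them lower (7.6%) on the side labelled cKO. With each library centred on its median the split was 1377 higher of 2431, and without WT 1 the count was 1158.

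Regional markers differed between libraries, and some of them moved with opioid genes. Markers of hypothalamic neurons (Nkx2-1, Otp, Sim1 and others, 9 genes) summed to 35.0 to 129 CPM in libraries labelled WT and to 66.9 to 175 CPM in those labelled cKO. Of the 8 tested, 1 was higher (Sim1) by limma, with 1 called by edgeR and 1 by DESeq2, and Nr5a1 and Rax were at 0 in at least 1 library. Markers of thalamus, a region next to the hypothalamus, summed to 402 to 876 CPM in libraries labelled WT and to 250 to 500 CPM in those labelled cKO, and 2 of 8 were lower by limma (Prkcd and Slitrk6), with 3 called by edgeR and 3 by DESeq2 (also Lef1), at a median log2 fold change of -0.57. Markers of neurons known to make dynorphin (Avp, Oxt, Hcrt, Kiss1, Tac2 and Tacr3) summed to under 100 CPM in 4 libraries, WT 4 (52.5), WT 5 (43.8), cKO 12 (65.1) and cKO 13 (79.8), and to between 215 and 473 CPM in the other 8. In both groups these sums overlapped, and 0 of 5 tested markers passed by limma, edgeR or DESeq2. The same 4 libraries had the highest sums of glial and vessel markers, at 7545 to 8580 CPM against 4135 to 6305 CPM in the others. Striatal markers, from a region rich in Penk and Pdyn, summed to 138 to 153 CPM in libraries labelled WT and to 128 to 143 CPM in those labelled cKO. Of these markers, 0 of 8 were called by limma, edgeR or DESeq2. The difference of each opioid gene is therefore also given without these 4 libraries, an alternative chosen after seeing the data.

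The precursors differ in the peptide units they carry, and the codons of these units are shown because they define which peptides each transcript can yield. Sequences are from GENCODE M21 mouse transcripts, 5′ to 3′ on the coding strand, and codons were counted from the start of the longest open reading frame. Capitals mark the codons of the opioid core, and the lower-case bases are the neighbouring pairs of codons. The Penk frame held 6 copies of the core ending in a methionine codon and 1 ending in a leucine codon, the Pdyn frame held 3 ending in a leucine codon, and the Pnoc frame held 1 core, which starts with a phenylalanine codon in place of tyrosine. A pair of codons for basic residues, where prohormone convertases cut, came before every one of them.
Penk, codon 100, methionine form: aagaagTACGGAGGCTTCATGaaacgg
Penk, codon 136, methionine form: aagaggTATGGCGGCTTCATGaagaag
Penk, codon 231, leucine form: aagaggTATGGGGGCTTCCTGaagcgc
Pdyn, codon 166, leucine form: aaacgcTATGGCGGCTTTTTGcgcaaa
Pdyn, codon 202, leucine form: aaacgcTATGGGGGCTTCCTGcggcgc
Pdyn, codon 221, leucine form: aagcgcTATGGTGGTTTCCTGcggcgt
Pnoc, codon 141, phenylalanine start: aaaaggTTTGGGGGCTTCaccggg
The leucine form at Penk codon 231 and at Pdyn codon 202 has the same 15 bases in capitals, so the transcripts share this stretch although their other cores differ.

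Levels of different genes were compared per kilobase of the merged exons of GENCODE M21. In the libraries labelled WT the order was Penk (35.2 ± 5.48 CPM per kb, SD, n = 7), Oprl1 (31.5 ± 2.92), Pdyn (9.78 ± 4.99), Pnoc (9.64 ± 0.786), Oprk1 (2.58 ± 0.509), Oprd1 (2.23 ± 0.407) and Oprm1 (0.623 ± 0.131). The ranges of neighbours overlapped for Penk and Oprl1, for Pdyn and Pnoc, and for Oprk1 and Oprd1. These ranges do not match the genes of a pair within each mouse, so they do not settle the order within a pair. They did not overlap between Oprl1 and Pdyn, between Pnoc and Oprk1, or between Oprd1 and Oprm1. In the libraries labelled cKO, Oprl1 (34.3 to 38.6 CPM per kb) lay above Penk (22.2 to 27.5 CPM per kb) without overlap. For the libraries labelled WT the order of the means was the same per kilobase of the longest coding transcript, but other ranges overlapped. The merged exons of Oprm1 span 8.037 kb over 31 transcripts, and per kilobase of its longest coding transcript (2.42 kb) it was at 2.07, beside 2.23 for Oprd1, with overlapping ranges. On the same scale Oprk1 was at 5.06, and its range of 3.30 to 5.97 lay above that of Oprd1 (1.58 to 2.81) without overlap and reached that of Pdyn (from 5.27).

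**Figure D1:**
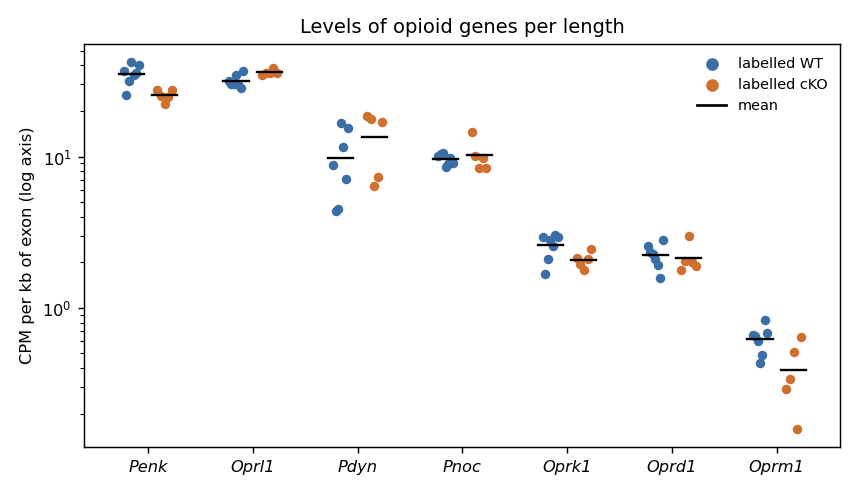
Level of each opioid gene in CPM per kilobase of merged exon (log axis), with 1 point per library, libraries labelled WT in blue and cKO in orange, and the group mean as a line. The 7 genes fall into steps, with Penk and Oprl1 at the top, Pdyn and Pnoc next, Oprk1 and Oprd1 below them and Oprm1 lowest, and Pdyn has the widest spread of the 3 precursors.

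Penk, the enkephalin precursor, fell in the libraries labelled cKO. It was at 60.3, 41.6, 51.6, 68.5, 56.9, 58.2 and 65.4 CPM in WT 1, 4, 5, 6, 7, 11 and 15, and at 44.9, 41.0, 36.2, 40.1 and 44.9 CPM in cKO 8, 9, 12, 13 and 14. All of the libraries labelled WT except WT 4 were above every library labelled cKO. Group means were 57.5 ± 8.95 (SD, n = 7) and 41.4 ± 3.66 CPM (SD, n = 5), a ratio of 0.720, and the limma estimate on log2(CPM + 1) was a log2 difference of -0.45 ± 0.10 (SE, adjusted p = 0.0143, 95% interval -0.67 to -0.23). In bulk tissue, fewer enkephalin cells and less Penk RNA per cell cannot be told apart. Without the 4 libraries low in dynorphin neuron markers the log2 fold change was -0.49 (limma adjusted p-value 0.00707). With the thalamus marker score as a covariate the size was -0.46 but the call was lost (limma adjusted p-value 0.0622), while with both the hypothalamus and thalamus scores it was -0.55 (limma adjusted p-value 0.000811).

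Pdyn, the dynorphin precursor, varied more between mice than between groups. It was at 25.2, 12.6, 12.9, 48.3, 33.5, 20.6 and 44.6 CPM in WT 1, 4, 5, 6, 7, 11 and 15, and at 53.7, 50.9, 18.3, 21.3 and 48.8 CPM in cKO 8, 9, 12, 13 and 14. The highest library was 3.84 times the lowest among those labelled WT and 2.93 times among those labelled cKO. The lowest in each group were the 2 libraries of that group that were also low in dynorphin neuron markers, with the part of those cells in the spread not tested. Means were 28.2 ± 14.4 (SD, n = 7) and 38.6 ± 17.3 CPM (SD, n = 5), and the limma estimate was a log2 difference of 0.46 ± 0.37 (SE, adjusted p = 0.427). Its 95% interval ran from a ratio of 0.790 to one of 2.41, so both a fall and a rise lie within it. Leaving out 1 library moved it from 0.31 (without WT 4) to 0.69 (without cKO 12), without passing the threshold. Without the 4 libraries it was 0.63 (limma adjusted p-value 0.117), and with the dynorphin neuron marker score as a covariate, an alternative chosen after seeing the data, it was 0.44 and passed the threshold (limma adjusted p-value 0.0391). It was smaller with the hypothalamus and thalamus scores as covariates (0.16, limma adjusted p-value 0.541) and with the striatum score (0.05, adjusted p-value 0.943).

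Pnoc, the nociceptin precursor, was the steadiest of the precursors in libraries labelled WT. Those held 21.6, 22.6, 22.9, 18.5, 19.4, 21.03 and 19.4 CPM in mouse order, and those labelled cKO held 31.3, 21.6, 18.1, 21.2 and 18.1 CPM. cKO 8 stood above all others, and the remaining values overlapped or lay just under the lowest library labelled WT. Means were 20.8 ± 1.70 (SD, n = 7) and 22.1 ± 5.41 CPM (SD, n = 5), with a limma log2 difference of 0.06 ± 0.11 (SE, adjusted p = 0.762, 95% interval -0.18 to 0.30). The sign changed without cKO 8 (-0.07) and with the striatum score as a covariate (-0.03, limma adjusted p-value 0.883), neither past the threshold, and without the 4 libraries the value was 0.20.

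**Figure D2:**
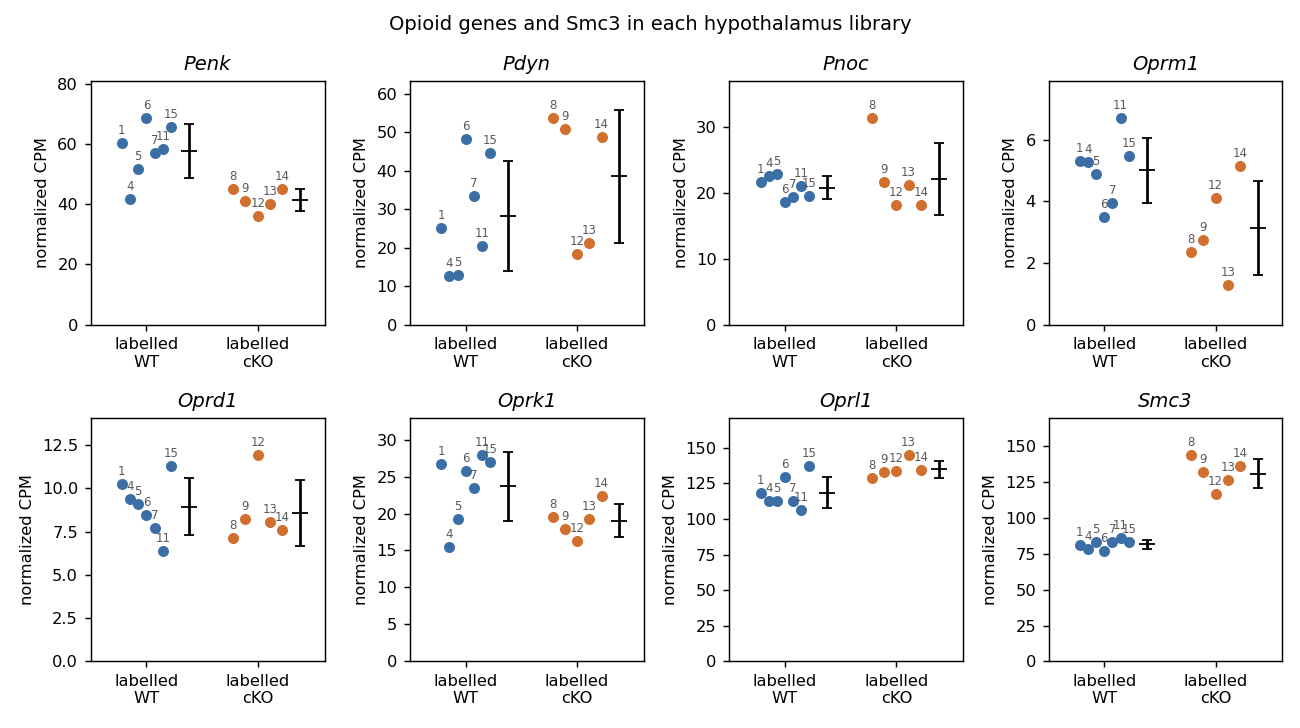
Normalized CPM of the 7 opioid genes and Smc3 in each library (blue, labelled WT, n = 7; orange, labelled cKO, n = 5), with the mouse number beside each point and the group mean ± SD as a bar. Penk sits at 36.2 to 44.9 CPM in libraries labelled cKO against 41.6 to 68.5 in those labelled WT, and Smc3 is the panel whose groups do not overlap.

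Among the receptors, Oprl1 alone passed the threshold. Oprl1, the nociceptin receptor, was at 118, 113, 112, 129, 112, 106 and 137 CPM in WT 1, 4, 5, 6, 7, 11 and 15, and at 129, 133, 133, 145 and 134 CPM in cKO 8, 9, 12, 13 and 14. Of the libraries labelled WT, 5 were below every library labelled cKO, and WT 6 and WT 15 reached into their range. Means were 118 ± 10.97 (SD, n = 7) and 135 ± 5.98 CPM (SD, n = 5), a ratio of 1.14, with a limma log2 difference of 0.19 ± 0.06 (SE, adjusted p = 0.0455, 95% interval 0.06 to 0.32). This call was close to the threshold. It was lost (limma adjusted p-value 0.0553 to 0.102) on leaving out any one library except WT 6 or WT 15, without the 4 libraries (0.14, adjusted p-value 0.260) and with the thalamus score as a covariate (0.10, adjusted p-value 0.360).

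Oprm1, the mu receptor through which morphine acts, had the largest difference in size among the receptors but did not pass. It was at 5.31, 5.28, 4.88, 3.49, 3.94, 6.69 and 5.47 CPM in WT 1, 4, 5, 6, 7, 11 and 15, and at 2.35, 2.75, 4.10, 1.28 and 5.15 CPM in cKO 8, 9, 12, 13 and 14. Of the libraries labelled cKO, 3 were below every library labelled WT, while cKO 12 and cKO 14 lay within their range. Means were 5.01 ± 1.05 (SD, n = 7) and 3.13 ± 1.52 CPM (SD, n = 5), from 27 to 365 reads per library, and the limma estimate was a log2 difference of -0.61 ± 0.21 (SE, adjusted p = 0.0671, 95% interval -1.05 to -0.16). Without cKO 14 it was -0.77 and passed (limma adjusted p-value 0.0313), and without the 4 libraries it was -0.46 (adjusted p-value 0.193). In GENCODE M21 the gene overlaps Ipcef1 on the opposite strand, and the strand setting of the counting is not given in the sources used here, so reads of the pair may not be separated. Ipcef1 was at 19.4 ± 1.24 (SD, n = 7) and 22.02 ± 2.47 CPM (SD, n = 5), with the opposite sign (limma log2 fold change 0.17, adjusted p-value 0.115).

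Oprk1, the kappa receptor for dynorphin, was at 26.7, 15.4, 19.3, 25.8, 23.4, 27.9 and 27.0 CPM in libraries labelled WT, in mouse order, and at 19.5, 17.9, 16.3, 19.2 and 22.4 CPM in those labelled cKO. WT 4 and WT 5 were within or below the range of libraries labelled cKO, and the other 5 were above it. Means were 23.7 ± 4.66 (SD, n = 7) and 19.0 ± 2.25 CPM (SD, n = 5), with a limma log2 difference of -0.28 ± 0.13 (SE, adjusted p = 0.164, 95% interval -0.56 to 0.00). It passed without WT 4 (-0.37, limma adjusted p-value 0.0302) and without the 4 libraries (-0.38, adjusted p-value 0.0209), and was smallest with the thalamus score as a covariate (-0.21, adjusted p-value 0.479).

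Oprd1, the delta receptor for enkephalin, was at 10.3, 9.42, 9.11, 8.46, 7.70, 6.36 and 11.3 CPM in libraries labelled WT, in mouse order, and at 7.13, 8.24, 11.9, 8.07 and 7.58 CPM in those labelled cKO. The groups overlapped over nearly their whole range. Means were 8.95 ± 1.63 (SD, n = 7) and 8.59 ± 1.92 CPM (SD, n = 5), with a limma log2 difference of -0.06 ± 0.13 (SE, adjusted p = 0.815, 95% interval -0.34 to 0.23). With the thalamus score as a covariate it was -0.38 and passed (limma adjusted p-value 0.0450), and with the striatum score its sign was positive (0.18, adjusted p-value 0.234). Without the 4 libraries it was -0.16 (adjusted p-value 0.509), and leaving out 1 library moved it from -0.17 (without cKO 12) to -0.0012 (without cKO 8), without passing the threshold.

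Of the 7 opioid genes, 2 passed the threshold by limma, 1 lower (Penk) and 1 higher (Oprl1), beside 14.1% of all tested genes, 7.6% lower and 6.54% higher. Their median log2 fold change was -0.06, against 0.01 for all tested genes. None of the 7 had groups without overlap, which 6.73% of tested genes had. In the authors' deposited table, Penk was the member with a false discovery rate (FDR) under 0.05 (log2 fold change -0.47, FDR 0.00131), where 4.94% of 32494 genes were. That deposited table gives Oprl1 a log2 fold change of 0.19 with an FDR of 0.0933 and Oprm1 one of -0.69 with an FDR of 0.123.

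**Figure D3:**
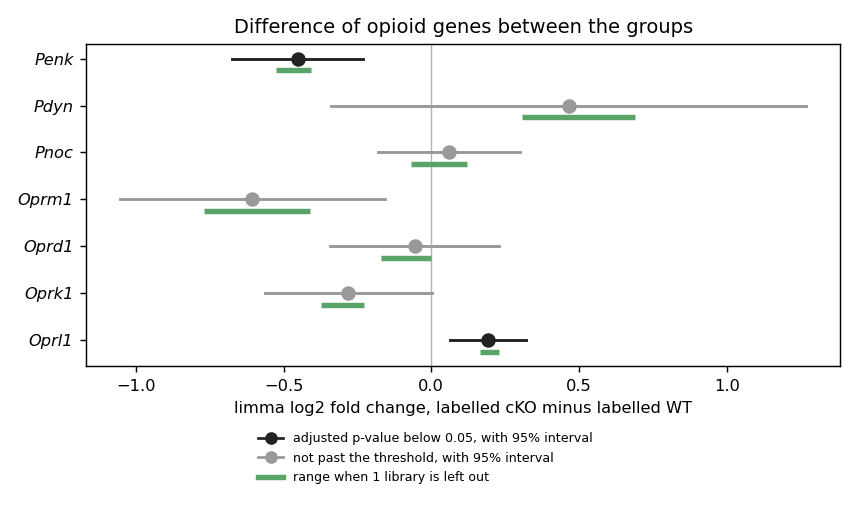
Limma log2 fold change (libraries labelled cKO minus WT, on log2(CPM + 1)) of each opioid gene, with its 95% interval as a line (black where the adjusted p-value was below 0.05, grey where it was not) and the range over fits that each left out 1 library in green. Penk lies at -0.45 with all leave-out values between -0.53 and -0.41, Oprl1 lies at 0.19, and the interval of Pdyn is the widest.

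Opioid genes also varied between mice within each group, together with the regional markers. Each value was taken as its deviation from its own group mean on the log2(CPM + 1) scale, so that the group difference plays no part, and 42 relations were computed over 12 libraries with permutations inside groups. The hypothalamus marker score, the mean of log2(CPM + 1) over its list, followed Penk with Pearson's r = 0.93 (permutation p adjusted over 42 relations 0.00042) and Spearman's rho = 0.97 (adjusted p 0.00126). Leaving out WT 4 and WT 5, the libraries farthest from the median of the score, gave r = 0.95. Pdyn followed the score with r = 0.94 (permutation p adjusted 0.00367) and rho = 0.94 (adjusted p 0.00882), and with r = 0.90 without the same libraries. Oprk1 followed it less closely, with r = 0.81 (permutation p adjusted 0.0182) and rho = 0.75 (adjusted p 0.0677), and with r = 0.62 without those libraries. Among the libraries labelled WT alone, r was 0.95 for Penk, 0.95 for Pdyn and 0.84 for Oprk1. WT 4 and WT 5, with the lowest scores of their group, held the least Penk, Pdyn and Oprk1 RNA in it. cKO 12 and cKO 13, with the lowest scores of theirs, held the least Penk and Pdyn, while Oprk1 in cKO 13 (19.2 CPM) was at the middle of its group. The points share the library, so tissue composition enters both measures, and its part in these relations was not tested.

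Penk rose with the hypothalamus score from mouse to mouse, but was lower in the group with the higher mean score (2.61 in libraries labelled cKO, 2.25 in those labelled WT). The scores overlapped, at 2.11 to 3.10 in libraries labelled cKO and 1.31 to 3.09 in those labelled WT, and their difference was not tested. The part of tissue composition in the Penk difference was not tested either. At scores of 2.97 to 3.10, WT 6 and WT 15 had 68.5 and 65.4 CPM of Penk, while cKO 8 and cKO 14 had 44.9 CPM each. Pdyn showed no such gap, with 48.3 and 44.6 CPM in WT 6 and WT 15 against 53.7 and 48.8 CPM in cKO 8 and cKO 14.

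Penk and Pdyn moved together between mice (r = 0.84, permutation p adjusted 0.00367; rho = 0.89, adjusted p 0.00882; r = 0.84 without WT 4 and WT 6). Penk and Oprk1 did so too (r = 0.90, permutation p adjusted 0.00664; rho = 0.80, adjusted p 0.0288; r = 0.84 without those libraries). Oprd1 ran against the thalamus score (r = -0.87, permutation p adjusted 0.0143; rho = -0.80, adjusted p 0.0419; r = -0.71 without WT 11 and cKO 12). In no relation of Pnoc, Oprm1 or Oprl1 with another member or with the hypothalamus, thalamus or dynorphin neuron score was the adjusted permutation p over the 12 libraries below 0.05. These pooled values include cKO 8, which stood above its group in Pnoc. Among the 7 libraries labelled WT alone, r was -0.95 for Pnoc with Pdyn, -0.85 for Pnoc with the hypothalamus score and -0.86 for Oprl1 with the thalamus score, given as a description with no p. The dynorphin neuron score set 4 libraries apart from the other 8, and the part of that split in its pooled r was not tested. That r was 0.93 for Pdyn (permutation p adjusted 0.00367), 0.79 for Penk (adjusted p 0.0129) and 0.73 for Oprk1 (adjusted p 0.0484). Without WT 5 and cKO 12 it was 0.90, 0.79 and 0.65 in that order. Spearman's rho was 0.87 (adjusted p 0.00882), 0.81 (adjusted p 0.0270) and 0.56 (adjusted p 0.314).

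**Figure D4:**
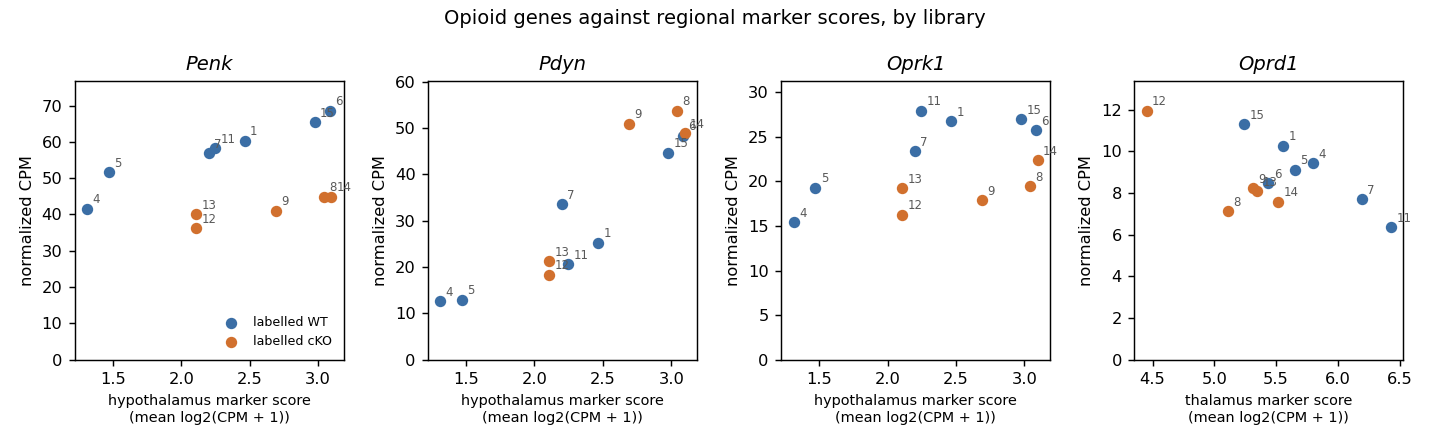
Normalized CPM of Penk, Pdyn and Oprk1 against the hypothalamus marker score and of Oprd1 against the thalamus marker score (mean log2(CPM + 1) over each list), with 1 numbered point per library, labelled WT in blue and labelled cKO in orange. Penk rises with the score in both groups but the orange points lie below the blue ones at the same score, while for Pdyn the points of both groups intermix, and Oprd1 falls as the thalamus score rises.

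The machinery that makes, removes and reads opioid peptides was examined by role, with lists chosen while earlier results of these data were known. None of the 10 genes of precursor cleavage and storage passed the threshold by limma in either direction (median log2 fold change 0.06), with 0 calls by edgeR and 2 by DESeq2. Over all tested genes, edgeR called 13.7% and DESeq2 17.9%. Among them Pcsk1, a convertase that cuts precursors at basic pairs, was at 56.0 ± 5.83 (SD, n = 7) and 61.8 ± 4.82 CPM (SD, n = 5). Pcsk2, the convertase that trims them further, was at 304 ± 33.5 and 260 ± 27.5 CPM, with a log2 fold change of -0.22 (limma adjusted p-value 0.0821). Of the 9 extracellular or cytosolic peptidases, 0 passed by limma (median -0.03), 0 by edgeR and 1 by DESeq2. Mme, the enkephalin-cleaving neprilysin, was at 14.5 ± 3.41 and 15.6 ± 5.96 CPM. Npepps, a puromycin-sensitive aminopeptidase, had groups without overlap at 226 ± 7.26 and 243 ± 5.54 CPM, but its limma adjusted p-value was 0.0549.

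Signal proteins behind the receptors, which are the next 3 lists (5, 9 and 15 genes), gave 3 calls by limma, all lower. Over all tested genes 14.1% were called, 7.6% lower and 6.54% higher. None of the 5 Gi/o alpha subunits passed by limma (median log2 fold change 0.05), edgeR or DESeq2. Gnao1, the Go subunit of neurons, was at 637 ± 25.8 (SD, n = 7) and 634 ± 35.9 CPM (SD, n = 5). Of 9 channels and cyclases, 1 was lower by limma, with 1 call by edgeR and 2 by DESeq2 (Cacna1a and Adcy1). Cacna1a, a P/Q-type calcium channel pore that opioid receptors inhibit, was at 139 ± 10.003 and 117 ± 11.1 CPM, with a log2 difference of -0.25 ± 0.07 (SE, limma adjusted p = 0.0256). Adcy1, a cyclase that calmodulin stimulates, was at 196 ± 35.7 and 149 ± 28.8 CPM (limma adjusted p-value 0.0789).

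Of 15 kinases, arrestins, RGS proteins and receptor partners, 2 were lower by limma, with 2 calls by edgeR. DESeq2 called 5 of them, Grk3, Rgs4, Rgs7 and Rgs14 as lower and Rgs20 as higher. Grk3, a kinase that phosphorylates active receptors before arrestin binds, was at 145 ± 12.9 CPM (SD, n = 7) and 122 ± 5.47 CPM (SD, n = 5) without overlap, with a log2 difference of -0.24 ± 0.06 (SE, limma adjusted p = 0.0179). Rgs4, which speeds the shut-off of Gi/o proteins, was at 238 ± 23.0 and 191 ± 24.4 CPM, with a log2 difference of -0.32 ± 0.08 (SE, limma adjusted p = 0.0249). The list median was -0.06. Of 3 transcription factors known to act on Penk, Pdyn or Oprm1, Creb1 was higher at 57.2 ± 2.14 and 62.7 ± 2.40 CPM (log2 difference 0.13 ± 0.04, SE, limma adjusted p = 0.0364), while Kcnip3, a repressor of Pdyn, and Rest did not pass. The 51 genes of these 6 lists held 4 calls (7.84%), 1 higher and 3 lower, beside 14.1% of all tested genes. Without the 4 libraries low in dynorphin neuron markers 2 remained, Grk3 and Cacna1a, while Rgs4 (-0.27) and Creb1 (0.13) did not pass. With the thalamus score as a covariate none of the 4 passed, although Cacna1a (-0.26) and Creb1 (0.15) kept the size of their log2 differences, while Grk3 (-0.16) and Rgs4 (-0.14) became smaller, and 1 other gene was past the threshold (Scg2). Leaving out 1 library, Grk3 was called in every fit, Rgs4 in all but those without cKO 8 or cKO 12, and Cacna1a in all but those without WT 1, cKO 13 or cKO 14. Creb1 was called only without WT 7, WT 15 or cKO 12.

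**Figure D5:**
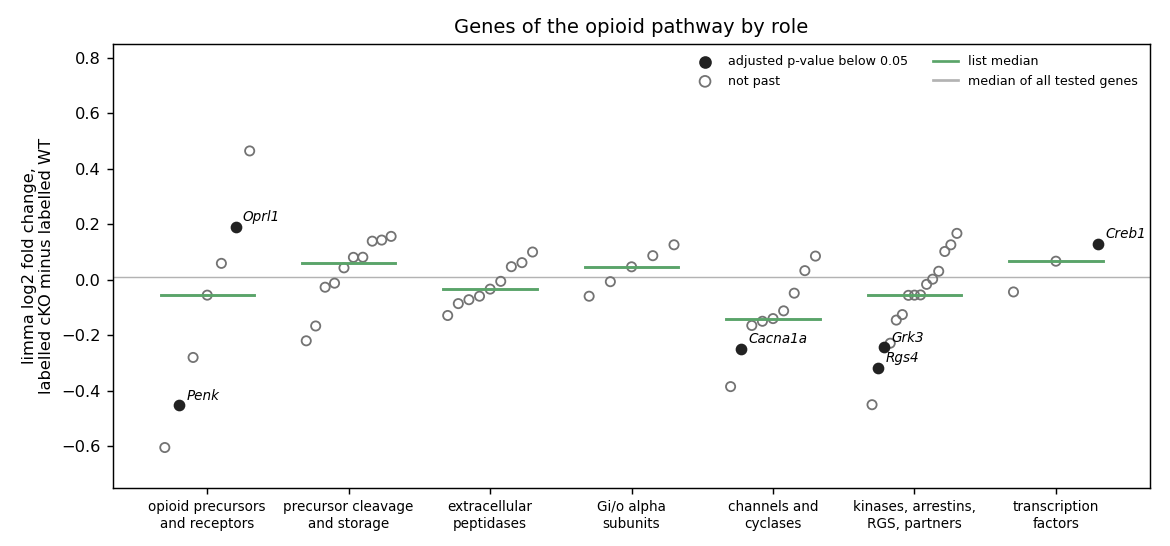
Limma log2 fold change (libraries labelled cKO minus WT) of every tested gene of the opioid system, grouped by role, with filled points where the adjusted p-value was below 0.05, green lines at list medians and a grey line at the median of all tested genes. Most points lie between -0.2 and 0.2, and the filled ones are Penk, Oprl1, Cacna1a, Grk3, Rgs4 and Creb1.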

How the data were processed

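The authors deposited normalized CPM for 32494 genes in 12 libraries, and their own test table with a log2 fold change, a p-value and an FDR per gene, per the file headers. The labels' protocols give a Qiagen kit for total RNA, NEB mRNA isolation and NEBNext Ultra II library preparation. The submitters' processing notes name bcl2fastq, FastQC 0.11.9, STAR 2.7.9a, SAMtools, Subread and featureCounts, with no role or order. Genome build, annotation and strand setting are not given in the sources used here, so no gene coordinates are printed. Column names matched mice 1 to 1, with 0 columns unused.

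Tests used limma 3.58.1 (R 4.3.3; lmFit, eBayes with trend) on log2(CPM + 1), a scale that understates changes of low genes, over genes whose mean reached 1 CPM, with Benjamini-Hochberg adjustment over all of them and a threshold of 0.05. All 12 libraries entered each fit unless a sentence says otherwise. Deposited CPM were whole multiples of one step in 100% of values (within 0.01 reads), so reads were recovered for edgeR 4.0.16 (quasi-likelihood, 2098 genes called) and DESeq2 1.42.0 (2747 genes). The floor of 3 reads was 0.0436 to 0.178 CPM. Reads carry no molecular identifiers, so floors cover counting error only. Pairs of libraries within a group differed beyond sampling noise, with a chi-square of 3.04 to 26.3 per degree of freedom over 31 pairs, and each was counted as 1 sample. The labels give no batch. On simulated counts the changed genes had a log2 change of 1, up or down. Limma recovered 180 of 198 of them (90.9%), with 2 false calls among 15289 tested. Smaller changes, such as those of the opioid genes, and shifts of tissue composition were not simulated.

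The opioid genes and all lists were chosen with earlier results of these data known. Genes named are the 7 members, Smc3, pathway genes past the threshold (at most 6 per list), the 3 genes most like each member by Pearson's r of deviations from group means, chromosomal neighbours and markers set beside a result. Genes named outside that rule (Pcsk1, Pcsk2, Mme, Npepps, Gnao1, Adcy1, Rgs7, Rgs14, Rgs20, Kcnip3, Rest, Scg2, Pomc) were chosen for their role or after their values were seen. Alternatives were a pseudocount of 0.1, all genes above 0, a mean of at least 5 CPM, median centring, quantile normalization, eBayes without trend or with the robust option, arrayWeights, edgeR, DESeq2, marker scores as covariates and leaving out each library. A dynorphin neuron score as covariate and the removal of 4 libraries were added after seeing the data.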

Additional observations from a re-analysis of the deposited data

Results flagged for a closer look

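A library standing far from its group was looked for in 32 groups of values and was found in 3, where chance gives about 1 in 20, or 1.6. Pnoc in cKO 8 was at 31.3 CPM, with the next library of its group at 21.6 CPM. Oprd1 in cKO 12 was at 11.9 CPM, with the next at 8.24 CPM, and cKO 12 also had the lowest thalamus marker sum (250 CPM). WT 1 held 68744112 reads, with the next library of its group at 24010001.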

How the results depend on the processing

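No paired analysis was possible because the groups share none of their mouse numbers. Penk kept its direction in all 15 alternatives other than leaving out a library (-0.55 to -0.44) and lost the threshold in 1, the thalamus score as covariate (-0.46). Leaving out 1 library, it passed in 12 of 12 fits (-0.53 to -0.41, limma adjusted p-value 0.00447 to 0.0334). Smc3 passed in all of them (0.61 to 0.74). Oprl1 lost the threshold over all genes above 0 (0.19), with quantile normalization (0.17), without trend (0.19), by edgeR (0.18), with the thalamus score (0.10), with the hypothalamus and thalamus scores (0.083) and without the 4 libraries (0.14), and ran from 0.17 to 0.23 on leaving out 1 library. Calls were gained with arrayWeights for Oprm1 (-0.60) and Oprk1 (-0.44), with the dynorphin neuron score for Pdyn (0.44) and Oprk1 (-0.29), without the 4 libraries for Oprk1 (-0.38), and for Oprd1 with the thalamus score (-0.38) and with both scores (-0.35). In the arrayWeights fit, WT 1 had a weight of 13.4, against at most 2.02 (cKO 9) in any other library. Leaving out 1 library, Oprm1 ran from -0.77 to -0.41 and Oprk1 from -0.37 to -0.23, and each passed in 1 of 12 fits. The cause of these changes was not tested.

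Opioid genes past the threshold numbered 1 over all genes above 0, with quantile normalization, without trend, by edgeR (Penk in each) and with the thalamus score (Oprd1), 4 with arrayWeights and 4 with the dynorphin neuron score, and 1 to 2 on leaving out a library. Pathway genes past it numbered 7 with median centring (4 higher and 3 lower), 11 with arrayWeights, 11 by DESeq2, 1 with the thalamus score, 7 with the dynorphin neuron score, 2 without the 4 libraries, and 2 (without WT 1) to 6 on leaving out a library. Over all genes the count was 5126 with arrayWeights and 815 with the thalamus score. Oprm1, at 27 reads in cKO 13, has the least depth and was under the minimum of 5 CPM.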

Other observations

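The balance of the enkephalin and dynorphin precursors differed between mice. The ratio of Penk CPM to Pdyn CPM was 2.39, 3.31, 3.99, 1.42, 1.70, 2.83 and 1.47 in WT 1, 4, 5, 6, 7, 11 and 15, and 0.837, 0.805, 1.97, 1.89 and 0.920 in cKO 8, 9, 12, 13 and 14. The ratio was above every library labelled cKO in 4 libraries labelled WT, and below every library labelled WT in 3 labelled cKO. These values are a description, with no test. They are not set per kilobase, so a ratio under 1 does not mean fewer Penk than Pdyn transcripts. The merged exons are 1.634 kb for Penk and 2.887 kb for Pdyn. Per kilobase, Penk (22.2 to 27.5 CPM) lay above Pdyn (6.35 to 18.6 CPM) in the libraries labelled cKO.

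Pomc, the precursor of beta-endorphin, was not among the 7 genes. It was at 3.02 to 22.9 CPM in libraries labelled WT (median 3.47) and at 3.41 to 153 CPM in those labelled cKO, with 153 CPM in cKO 14. That library also had the highest sum of pituitary markers, 13.6 CPM, against 1.84 to 9.52 CPM in the others. By limma the log2 difference was 1.16 ± 0.75 (SE, adjusted p = 0.311). The part of pituitary tissue in this value was not tested.

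Genes most like each opioid gene were ranked by Pearson's r of deviations from group means over the 12 libraries, across the 15359 tested genes, with no p. For Pdyn they were Gad1, which makes the transmitter GABA (r = 0.97), and the transcription factors of the developing hypothalamus Six6 (0.97, also on the hypothalamus marker list) and Vax1 (0.96). For Penk they were Uck1 (0.97), Mesd (0.93) and Col9a2 (0.93), for Pnoc Tprkb (0.93), Cxcl12 (0.87) and Sp7 (0.86), and for Oprm1 Myh10 (0.98), Mob1b (0.97) and Mgat5 (0.97). For Oprd1 they were Tmem200a (0.96), Epb41 (0.94), which is also its nearest protein-coding gene on one side, and Tmtc1 (0.93). For Oprk1 they were Exosc1 (0.97), Casd1 (0.94) and Nelfcd (0.92), and for Oprl1 Plscr4 (0.92), Fam184b (0.90) and Synpr (0.90). The points share libraries, and the part of tissue composition in these rankings was not tested.

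Chromosomal neighbours were named from a RefSeq table of assembly GRCm38.p6. By limma, Zfp395 beside Pnoc was lower (30.1 ± 1.72 CPM, SD, n = 7, and 25.8 ± 2.78 CPM, SD, n = 5, adjusted p-value 0.0420). Atp6v1h, a proton pump subunit gene beside Oprk1, was higher (185 ± 7.87 and 206 ± 13.9 CPM, limma adjusted p-value 0.0401). Both calls were close to the threshold of 0.05, beside 14.1% of all tested genes called, and neither was followed through the alternatives. The other tested neighbours, Sirpa and Stk35 beside Pdyn, Elp3 beside Pnoc, Cnksr3 beside Oprm1, Epb41 and Ythdf2 beside Oprd1, Npbwr1 beside Oprk1 and Myt1 beside Oprl1, did not pass. No tested neighbour adjoined Penk, and the gene that overlaps it on the opposite strand in GENCODE M21, A830012C17Rik, had at most 2 reads in any library.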
